A study of Mus musculus with 2 samples.

Results

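Tumour cells with high levels of 6 transcripts of late G2 and mitosis were examined in tumours of the mouse colon carcinoma line MC38 grown in C57BL/6 mice. A barcode was kept with at least 200 genes and at most 20% mitochondrial UMIs (unique molecular identifiers, each read as 1 captured transcript). It was called a tumour cell with 0 UMIs of the leukocyte gene Ptprc, at least 1 UMI of Hmga2, an oncofetal chromatin gene, and under 10 UMIs of C1qa, C1qb and C1qc together. Tumour cells were ranked by the summed UMIs of Cdc20, Cenpa, Ccnb2, Hmmr, Tpx2 and Kif20a over all UMIs of the cell. The highest 10% over both libraries, 853 of 8531 tumour cells among 14615 barcodes, are called mitotic cells here. The cells were chosen by the UMIs of these 6 genes, so their high level is a description and not a result.

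One library came from a tumour of MC38 cells overexpressing RSPO3 (RSPO3-OE) and 1 from a tumour of control MC38 cells (Ctrl). RSPO3 belongs to the R-spondins, secreted proteins that amplify responses to Wnt ligands. The labels call both tumours xenografts, although the injected cells and the host are of mouse origin. How many mice were used, where and how long the tumours grew and whether the line is 1 clone is not stated in the labels. Each group has 1 library, so no test was made, cells are not replicates, and all intervals are 95% intervals that cover counting error only.

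Cells enter mitosis when cyclin B and CDK1 become active, condense their chromosomes, attach them to spindle microtubules through kinetochores, and divide after the anaphase-promoting complex marks securin and cyclins for breakdown. Many of the genes involved are transcribed late in the cycle under the DREAM and MYBL2-FOXM1 complexes, which act through the CHR element (cell cycle genes homology region), often beside CCAAT boxes bound by NF-Y. Genes of DNA replication peak earlier, at the start of S phase, and replication-dependent histone genes during it. A transcript score marks cells rich in such RNA and cannot separate late G2 from mitosis.

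The 6 genes were detected together in nearly every chosen cell. All 6 had a UMI in 370 of the 380 RSPO3-OE mitotic cells (97.4%, 95.2 to 98.7) and in 422 of the 473 Ctrl ones (89.2%, 86.1 to 91.9), against 16.9% and 14.1% of the other tumour cells. The score formed a continuum across its limit. The last cells inside stood at 1601.57, 1600.91 and 1600.88 UMIs per 1000000 UMIs of the cell and the first outside at 1599.04, 1597.59 and 1595.82, and 274 tumour cells lay within 10% of the limit, 124 of them mitotic cells.

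The mitotic cells held more RNA than the other tumour cells. In RSPO3-OE their median was 33159.5 UMIs against 24627, a ratio of 1.35, and in Ctrl 27438 against 20822, a ratio of 1.32. With each cell thinned to 2000 UMIs, the median number of genes was 1032 against 987 in RSPO3-OE and 1033 against 990 in Ctrl. The mitochondrial share had a median of 2.76% against 2.87% in RSPO3-OE and 3.74% against 3.95% in Ctrl. Depth and mitochondrial share differed between the libraries in both cell sets, and their part in the results below was not tested.

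Host and immune transcripts were low in the mitotic cells beside leukocytes, though in Ctrl some stood above the other tumour cells. Together, 4 genes of the Y chromosome (Uty, Ddx3y, Kdm5d and Eif2s3y) gave 0.151 CPM (UMIs per 1000000 UMIs of the cell set) in RSPO3-OE mitotic cells, with 3 of the 4 at 0, and 0.555 CPM in Ctrl, against 136.4 and 88.7 CPM in Ptprc-positive cells with at least 10 C1q UMIs, called C1q-high leukocytes here. The 8 macrophage markers summed to 32.9 CPM in RSPO3-OE and 42.3 in Ctrl mitotic cells, against 19436 and 25354 CPM in the C1q-high leukocytes. None of these 8 was at 0, and the rule allows up to 9 C1q UMIs in a tumour cell. The Y-linked genes gave 0.399 CPM in RSPO3-OE and 0.152 in Ctrl other tumour cells. The 6 T cell markers summed to 2.56 CPM in RSPO3-OE and 4.86 in Ctrl mitotic cells, against 2.98 and 2.25 in other tumour cells. For 3 NK cell markers the sums were 0.0753 and 0.416 CPM, against 0.136 and 0.13. The Y-linked, T cell and NK cell sums of mitotic cells were thus above the other tumour cells in Ctrl and below them in RSPO3-OE. In mitotic cells 3 counts would be 0.226 CPM in RSPO3-OE and 0.208 in Ctrl. The Y-linked and NK cell sums therefore rest on few UMIs, and their directions are uncertain. Of 6 fibroblast markers, Dpt was at 0 in RSPO3-OE mitotic cells; the list summed to 1779 CPM there against 3847 CPM in the other tumour cells, and in Ctrl to 1391 against 2593 CPM. Scrublet, a caller of doublets that were not removed here, marked 0 of 380 and 2 of 473 mitotic cells. Of 7 barcodes present in both libraries, 1 belonged to a mitotic cell, and none was mitotic in both.

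The share of tumour cells in the mitotic set differed between the libraries, and the difference was smaller in the scores without Cenpa. The set held 380 of 4213 tumour cells in RSPO3-OE (9.02%, 8.17 to 9.93) and 473 of 4318 in Ctrl (10.95%, 10.04 to 11.92, exact Clopper-Pearson intervals). The log2 ratio of Ctrl over RSPO3-OE was 0.28 (0.10 to 0.47, normal approximation). With Cenpa left out of the score, an alternative chosen after seeing the data, the shares were 9.83% (8.94 to 10.77) and 10.17% (9.28 to 11.11). No other score gene was left out on its own. With Hmmr, Tpx2 and Kif20a alone they were 9.76% and 10.24%, and with Cdc20, Cenpa and Ccnb2 alone 8.40% and 11.56%. Of the 853 cells chosen without Cenpa, 772 (90.5%) were in the set described here. At the other end, 35.6% of RSPO3-OE and 34.8% of Ctrl tumour cells held no UMI of any of the 6 genes.

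**Figure D1:**
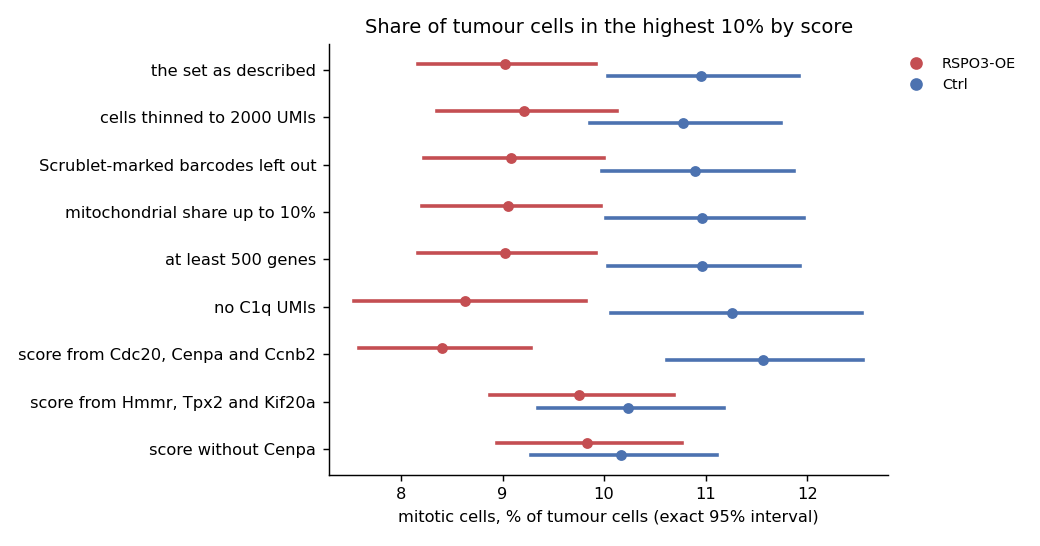
Share of tumour cells among the highest 10% by score, in % on the x axis with exact 95% intervals, for each library (colour) under the score as described and under 8 alternatives (rows). RSPO3-OE is at 9.02% and Ctrl at 10.95% in the first row, and the points lie at 9.83% and 10.17% when Cenpa is left out.

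Cenpa, which encodes the histone H3 variant that marks centromeres, was lower in the RSPO3-OE library in both cell sets. The gene (ENSMUSG00000029177) lies at chr5:30666777-30674830 on the plus strand of mm10 in the GENCODE annotation. Its transcripts stood at 567.9 CPM in RSPO3-OE and 769.0 in Ctrl mitotic cells, a log2 ratio of -0.44 (-0.48 to -0.40), and at 84.5 and 129.2 CPM in the other tumour cells, a log2 ratio of -0.61. It made up 24.2% of the 6-gene UMIs of mitotic cells in RSPO3-OE and 33.2% in Ctrl. Hmmr, a spindle and hyaluronan-binding protein, differed the other way at 391.5 against 303.7 CPM, a log2 ratio of 0.37 (0.31 to 0.42). Cdc20, the activator of the anaphase-promoting complex, was at 551.3 against 457.0 CPM, a log2 ratio of 0.27 in mitotic cells and -0.04 in the other tumour cells. Ccnb2, a B-type cyclin, Tpx2, which activates Aurora A on the spindle, and Kif20a, a kinesin of cytokinesis, had log2 ratios of 0.06, 0.05 and 0.17 in mitotic cells. In the other tumour cells Hmmr had 0.16, Ccnb2 -0.10, Tpx2 -0.01 and Kif20a -0.02. The rule chose mitotic cells by the sum of the 6 genes, 2343.6 CPM in RSPO3-OE and 2319.5 in Ctrl. Within that set a lower Cenpa therefore goes with higher levels of the others, and their ratios there are descriptions only.

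The promoters of 4 of the 6 score genes and of Gas2l3, the gene with the highest ratio in the mitotic cells among those the naming rule allows, are shown because the late cell cycle elements can be read in them. Each line gives the 120 bases before the gene start of RefSeq, 5′ to 3′ on the gene's strand, on GRCm38.p6, the same assembly as mm10. RefSeq and GENCODE place some starts differently, and most of the Cenpa line and the last bases of the Cdc20 line lie inside the gene as GENCODE gives it. Capitals mark CHR letters (TTTGAA or TTCGAA) and CCAAT boxes (CCAAT), each on either strand.
Cdc20 promoter, chr4:118437344-118437463, minus strand: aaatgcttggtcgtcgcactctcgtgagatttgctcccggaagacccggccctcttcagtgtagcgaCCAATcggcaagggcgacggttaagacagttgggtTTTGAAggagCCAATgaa
Ccnb2 promoter, chr9:70421555-70421674, minus strand: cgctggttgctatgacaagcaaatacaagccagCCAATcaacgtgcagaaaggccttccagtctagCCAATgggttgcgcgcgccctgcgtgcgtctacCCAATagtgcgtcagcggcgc
Cenpa promoter, chr5:30666766-30666885, plus strand: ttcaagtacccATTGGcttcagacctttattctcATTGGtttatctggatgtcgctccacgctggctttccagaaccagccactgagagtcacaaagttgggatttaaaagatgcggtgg
Hmmr promoter, chr11:40733438-40733557, minus strand: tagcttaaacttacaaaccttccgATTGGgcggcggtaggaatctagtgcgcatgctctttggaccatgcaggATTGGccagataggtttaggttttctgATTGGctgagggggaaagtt
Gas2l3 promoter, chr10:89443968-89444087, minus strand: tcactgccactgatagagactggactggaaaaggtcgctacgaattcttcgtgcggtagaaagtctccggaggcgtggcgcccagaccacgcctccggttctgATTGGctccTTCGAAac

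In Cdc20 the CHR letters lie 18 bases before the gene start and in Gas2l3 8 bases before it. In Ccnb2, Cenpa and Hmmr a CHR match begins 5, 17 and 9 bases after the start, outside the bases shown. In the window from 250 bases before to 50 bases after the start, all 4 of the matched score genes held both a CHR and a CCAAT match. Among 27025 such windows 19.4% held a CHR match, 37.9% a CCAAT match and 7.70% both. Of the 12 genes with the highest mitotic ratio, 11 had a promoter entry, of which 8 held a CHR match and 11 a CCAAT match. CHR letters were found in 11 of 12 mitotic kinesin promoters, 6 of 30 DNA replication promoters and 3 of 16 immediate early gene promoters. A match describes letters in a window and shows no binding.

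Beyond the 6 genes, genes of mitotic entry, chromosome segregation and cytokinesis were among the highest in the mitotic cells of both libraries. Of 11064 genes with at least 100 UMIs, 214 (1.93%) were at least 2-fold higher than in the other tumour cells in both libraries and 67 (0.606%) at least 2-fold lower. Within 1 library, 257 genes (2.32%) were higher and 203 (1.83%) lower past that limit in RSPO3-OE, and 245 (2.21%) and 133 (1.2%) in Ctrl. The median log2 ratio over all these genes was 0.01 in each library. The counts of higher genes include the 6 score genes. The score chose the cells by this contrast, so the counts are descriptions, and nothing is read from them against the background. The 12 highest genes with at least 50 CPM in the higher cell set of each library were Gas2l3, Aspm, Cenpf, Aurka, Plk1, Cdc25c, Cenpe, Nek2, Ccnb1, Cdkn3, Ckap2 and Depdc1a.

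Gas2l3, which links actin and microtubules in late division, stood at 91.3 against 9.18 CPM in RSPO3-OE and 73.6 against 10.5 CPM in Ctrl, log2 ratios of 3.31 (3.19 to 3.44) and 2.81 (2.68 to 2.93). Aspm, a spindle pole protein, stood at 149.7 against 17.6 CPM in RSPO3-OE and 157.8 against 21.1 CPM in Ctrl, log2 ratios of 3.09 and 2.91. Both were found in most mitotic cells, Gas2l3 in 77.1% in RSPO3-OE and 70.2% in Ctrl, and Aspm in 86.3% and 89.2%.

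The cyclins and the switch of CDK1 were high. Of 11 genes of cyclins, CDK1 and its regulators, 8 were at least 2-fold higher in both libraries. Ccnb1, the main mitotic cyclin, stood at 396.3 against 59.0 CPM in RSPO3-OE and 302.8 against 52.1 CPM in Ctrl, log2 ratios of 2.75 and 2.54. Cdc25c, the phosphatase that activates CDK1 at mitotic entry, had log2 ratios of 2.99 and 2.57. Ccnf, a cyclin that recruits ubiquitin ligase, had 1.78 and 1.92, Cks2, a CDK subunit, 1.86 and 1.81, and Cdk1 itself 1.37 and 1.38. The lowest of the list were not high: Cdc25a, which also acts at the start of S phase, stood at -0.38 and -0.12 and Pkmyt1, an inhibitory kinase of CDK1, at -0.18 and -0.04.

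Among 11 mitotic kinases 8 were past 2-fold in both libraries. Aurka, the Aurora kinase of centrosomes, stood at 140.8 against 18.4 CPM in RSPO3-OE and 156.2 against 24.0 CPM in Ctrl. Plk1, which drives mitotic entry and spindle assembly, stood at 163.0 against 21.3 CPM and 156.0 against 25.2 CPM. Nek2, a kinase of centrosome separation, had log2 ratios of 2.79 and 2.64 and the checkpoint kinase Bub1b 2.05 and 1.93. Pbk and Melk had the lowest ratios, 0.62 and 0.61 for Pbk and 0.92 and 0.95 for Melk.

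Some genes of the anaphase-promoting complex and its targets were high. Of 18 genes 4 were past 2-fold in both libraries: Ube2c, its ubiquitin-conjugating enzyme, at 2.48 and 2.34, Ube2s, which extends the chains, at 1.25 and 1.31, Espl1, the separase that cuts cohesin, at 1.65 and 1.72, and Fzr1, the activator of mitotic exit, at 1.59 and 1.40. Fbxo5, an inhibitor of the complex, stood just under that limit at 0.96 and 0.99, and Pttg1, the securin gene, at 0.33 and 0.21. Core subunits lay between -0.15, for Cdc16 in RSPO3-OE, and 0.84, for Cdc27 in Ctrl.

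Centromere and kinetochore genes were partly high. Of 21 centromere proteins and 20 kinetochore and checkpoint genes, 10 each were past 2-fold in both libraries. Cenpf, a large protein of the outer kinetochore, stood at 874.5 against 116.2 CPM in RSPO3-OE and 906.8 against 135.1 CPM in Ctrl. Cenpe, a kinesin that aligns chromosomes, stood at 551.0 against 78.5 CPM and 490.2 against 75.4 CPM. Cenpl had log2 ratios of 2.01 and 2.06. Knl1, the scaffold that recruits checkpoint kinases, had 1.74 and 1.84, Spdl1, which brings dynein to kinetochores, 1.62 and 1.64, and Nuf2 and Ndc80, subunits of the microtubule coupler, 1.52 and 1.54 for Nuf2 and 1.5 in both libraries for Ndc80. Other subunits of the same structures were not higher: Cenpx stood at -0.19 and -0.35, Zw10 at -0.02 and -0.15 and Zwint at 0.03 and -0.05.

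All 5 genes of the chromosomal passenger complex and shugoshins were past 2-fold in both libraries. Birc5, its survivin subunit, stood at 602.9 against 200.2 CPM in RSPO3-OE and 518.8 against 176.9 CPM in Ctrl. Cdca8 (borealin) had log2 ratios of 1.91 and 1.81, Incenp, the scaffold, 1.47 and 1.47, and the cohesin protectors Sgo1 and Sgo2a 1.63 and 1.63 and 2.08 and 1.98.

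Of 12 mitotic kinesins 10 were past 2-fold in both libraries, and their medians were the highest of the 23 lists drawn below, 2.21 in RSPO3-OE and 2.12 in Ctrl. Kif2c, which depolymerises microtubules at centromeres, stood at 135.0 against 21.1 CPM and 105.6 against 20.5 CPM. Kif14, a kinesin of cytokinesis, had log2 ratios of 2.52 and 2.25, Kif18b 2.34 and 2.26 and Kifc1, which clusters centrosomes, 2.37 and 2.21. Kif15 (0.82 and 0.99) and Kif24 (0.39 and 0.46) were lowest.

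Of 32 spindle and centrosome genes 19 were past 2-fold in both libraries. Psrc1, a spindle protein that promotes microtubule growth, had log2 ratios of 3.14 and 2.76 at 20.8 and 31.5 CPM in mitotic cells, Ckap2, a microtubule-bound spindle protein, 2.66 and 2.40 and Depdc1a 2.59 and 2.47. Tubg1, the gamma tubulin that nucleates microtubules, stood at -0.18 and -0.11, and Kifap3 at -0.08 and 0.01. Of 10 cytokinesis genes 8 were past 2-fold: Cep55, which organises abscission, at 2.37 and 2.19, Ect2, the exchange factor that activates RhoA, at 2.17 and 2.11, and its partner Racgap1 at 1.81 and 1.68. Rhoa itself stood at 0.16 and 0.16.

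Chromosome genes followed, with 6 of 17 condensation and cohesion genes past 2-fold in both libraries. Mki67, which coats mitotic chromosomes, stood at 445.0 against 159.6 CPM in RSPO3-OE and 530.8 against 175.2 CPM in Ctrl. The condensin I subunits Ncapd2, Ncapg and Ncaph had log2 ratios between 1.12 and 1.52, while the condensin II subunit Ncapg2 stood at -0.45 and -0.09 and the cohesin subunit Smc3 at -0.16 and -0.05. Of 11 HMGB, HMGN and histone variant genes 3 were past 2-fold: H2afx, the H2A variant phosphorylated at breaks, at 1.52 and 1.53, Hmgb3 at 1.57 and 1.36, and Hmgb2, a DNA-bending protein, at 1.20 and 1.26. In the nuclear envelope, Nup37 (1.51 and 1.26) and Lmnb1, the gene of lamin B1 (1.41 and 1.28), were past 2-fold among 13 genes.

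The transcription factors of these programmes stood on opposite sides. Foxm1, the activator of late cell cycle genes, was at 53.9 against 22.4 CPM in RSPO3-OE and 60.1 against 24.2 CPM in Ctrl, log2 ratios of 1.27 and 1.31. E2f1, the activator of S phase genes, was at 7.38 against 24.7 CPM and 7.63 against 27.4 CPM, log2 ratios of -1.74 and -1.84. Of 19 such factors these were the only ones past 2-fold in both libraries. Mybl2, the MYB partner of FOXM1, stood at -0.80 and -0.36.

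**Figure D2:**
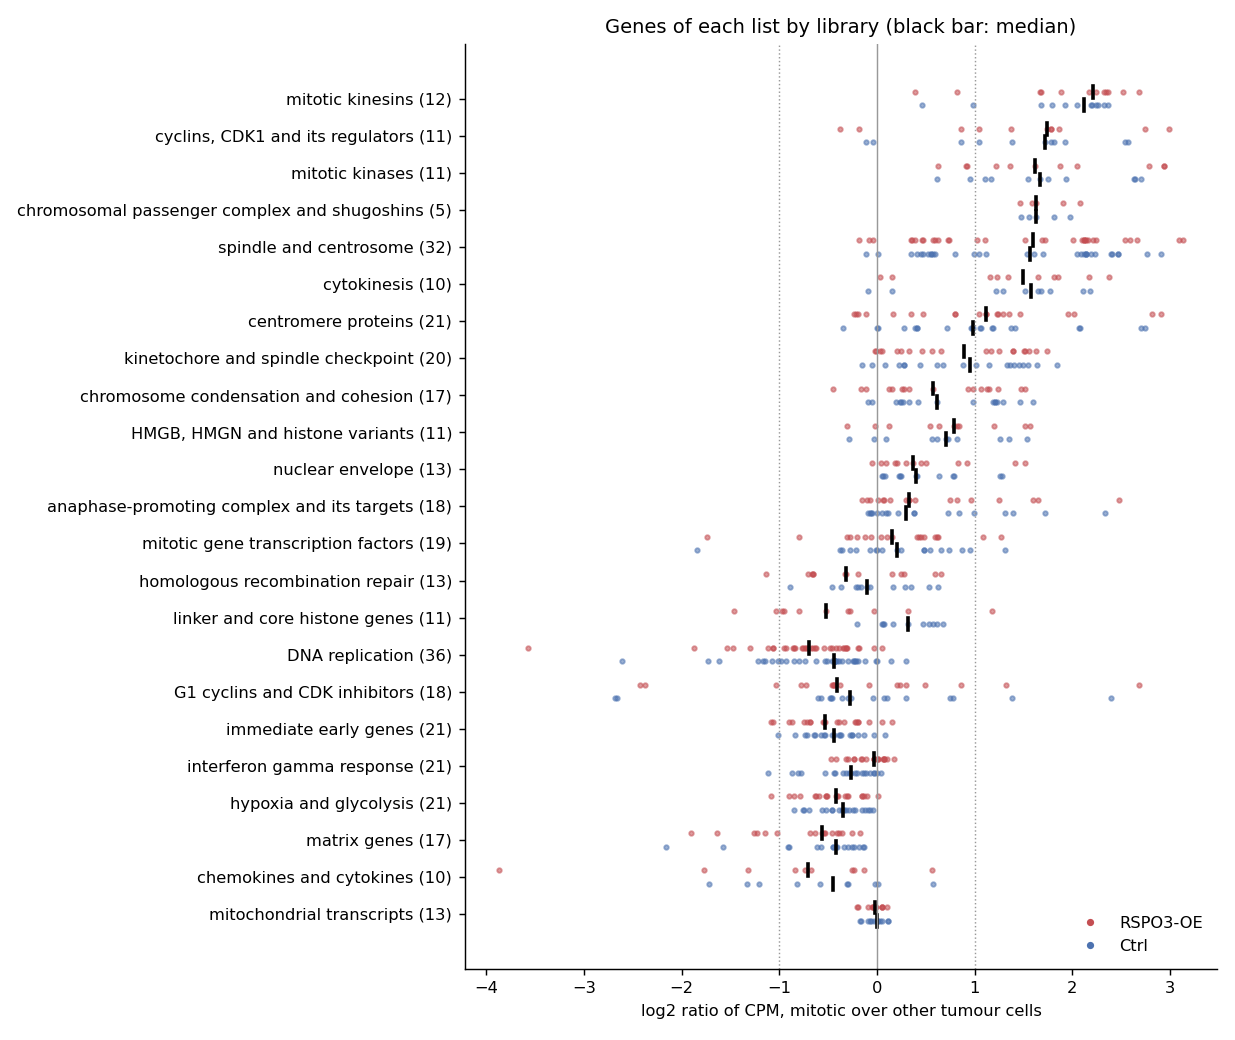
Log2 ratio of CPM in mitotic over other tumour cells (x axis) for the genes of 23 lists (rows, number of genes in brackets), with 1 point per gene and library and a black bar at each list's median. Dotted lines mark 2-fold. Kinesins have medians of 2.21 and 2.12, and the histone row has medians of -0.52 in RSPO3-OE, positive when the highest 20% of cells are taken or cells are thinned, and 0.32 in Ctrl.

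Lower in the mitotic cells were genes of DNA replication, the matrix and growth signals. Of 36 replication genes 34 were below 0 in both libraries and 7 past 2-fold, with list medians of -0.69 and -0.44. Among all genes, 0.606% were lower past 2-fold in both libraries, and the median was 0.01 in each. How many of all genes were below 0 in both was not counted, for this list or those below. Pcna, the clamp of replicative polymerases, stood at 80.1 against 167.3 CPM in RSPO3-OE and 86.8 against 182.2 CPM in Ctrl. The helicase subunits Mcm3 and Mcm6 had log2 ratios of -1.06 and -1.01 and of -0.95 and -1.21, and Lig1, which joins lagging strands, -1.30 and -1.16. Cdc6, which loads the helicase, had -1.87 and -1.73, and Ung, which removes uracil from DNA, -3.58 and -2.61. Rrm1, the large subunit of ribonucleotide reductase, was the exception above 0 in both libraries, at 0.05 and 0.14.

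The E-type cyclins, which drive entry into S phase, had the lowest ratios of the cyclins in these lists. Ccne2 stood at 2.49 against 13.3 CPM in RSPO3-OE and 1.67 against 10.7 CPM in Ctrl, and Ccne1 had log2 ratios of -2.37 and -2.67. CDK inhibitors went both ways. Cdkn3, a phosphatase of CDK1 and CDK2, stood at 130.7 against 20.4 CPM and 88.4 against 16.8 CPM, and Cdkn2d had log2 ratios of 1.32 and 1.39. Cdkn1a, the p21 gene, had -0.46 in both libraries.

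Immediate early genes, which respond within minutes to growth factors or stress, were below 0 in both libraries for 19 of 21 members, with medians of -0.53 and -0.44. Fos stood at 1029 against 1656 CPM in RSPO3-OE and 413.5 against 742.0 CPM in Ctrl. Of 21 hypoxia and glycolysis genes 20 were below 0 in both libraries, led by Hk2, a hexokinase, at -1.08 and -0.85, and Ndrg1 at -0.90 and -0.75. None of either list was past 2-fold in both. All 17 matrix genes were below 0 in both libraries, and Mgp and Lum were past 2-fold. Mgp, matrix Gla protein, stood at 136.1 against 509.5 CPM in RSPO3-OE and 15.96 against 71.2 CPM in Ctrl, with 10.96% and 10.4% of its mitotic UMIs in a single cell. Aspn, a small matrix proteoglycan, had ratios of -4.19 and -3.44, from 70 and 67 UMIs in the mitotic cells. Col3a1 (-1.25 and -0.90), Apod, a lipid carrier (-1.24 and -1.27), Cebpd, a stress-induced transcription factor (-1.97 and -1.87), Ptgs2, the inducible prostaglandin synthase (-1.83 and -0.94), Nppb (-0.89 and -1.28) and Ccl7, a monocyte chemokine (-1.32 and -1.32), complete the 12 lowest genes with at least 50 CPM in the higher cell set of each library. Fibroblast markers moved with these matrix genes in the sums given above, and their part in the result was not tested.

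With tumour cells ordered by the score, the cell cycle lists peaked at different steps. The tumour cells were divided into 5 steps, from a score of 0 (step 1, 1501 and 1503 cells) over 2 steps of the remaining cells below the limit to the mitotic cells below and above their median score (steps 4 and 5). Replication genes were highest in step 2: 31 of 36 peaked there in both libraries. Histone genes followed in step 3, with 8 of 11. In step 5 peaked 9 of 11 cyclin and CDK1 genes, 9 of 11 kinases, 10 of 12 kinesins and all 5 passenger and shugoshin genes, while 18 of 21 immediate early genes and 20 of 21 hypoxia genes peaked in step 1. Because the steps were cut on the score, a peak of mitotic genes in step 5 is a description and not a result. The share of all genes peaking in each step was not counted, so these counts have no background. Steps 1 to 5 had median depths of 18444, 27096, 33113, 34116 and 31980 UMIs in RSPO3-OE and 15502, 24597, 28557, 30360 and 26165.5 in Ctrl, so depth moved with the first 3 steps, and its part was not tested.

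Single genes show the order. Pcna went from 94.1 CPM in step 1 to 252.6 in step 2 and 75.7 in step 5 in RSPO3-OE, and from 108.9 to 260.8 and 77.2 in Ctrl. Ccnb1 went from 1.71 CPM in step 1 over 136.8 in step 3 to 455.2 in step 5 in RSPO3-OE, and from 2.36 over 116.2 to 355.2 in Ctrl. Within the mitotic cells, Cenpf was at 649.2 CPM in step 4 and 1106 in step 5 in RSPO3-OE and at 715.1 and 1135 in Ctrl, whereas Top2a, the topoisomerase that untangles chromosomes, changed little between them, 1034 and 1119 CPM in RSPO3-OE and 1010 and 1085 in Ctrl.

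**Figure D3:**
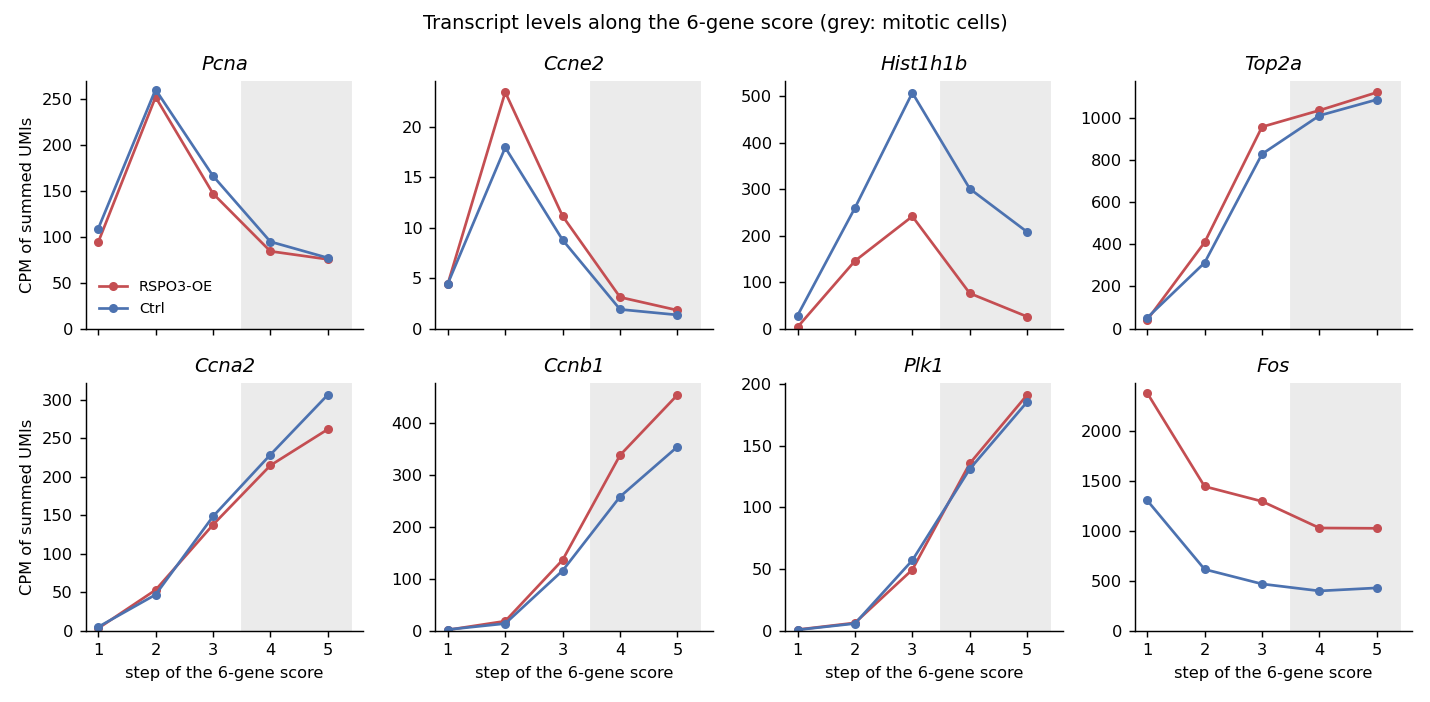
CPM of summed UMIs (y axis, own scale in each panel) of 8 genes over the 5 steps of the 6-gene score (x axis) in each library (colour), with the mitotic cells on grey. Pcna is highest in step 2 at 252.6 and 260.8 CPM, Hist1h1b in step 3 at 241.5 and 507.2 CPM, and Ccnb1 in step 5 at 455.2 and 355.2 CPM.

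Between the libraries, lists of the mitotic machinery had medians from -0.20, for condensation and cohesion, to 0.12, for spindle and centrosome genes, in mitotic cells, and most histone genes were lower in RSPO3-OE. In mitotic cells 630 of 9690 genes (6.5%) were at least 1.5-fold higher in RSPO3-OE and 1136 (11.7%) at least 1.5-fold lower. In the other tumour cells, 1017 of 12041 genes (8.45%) were higher and 1556 (12.9%) lower. Of the 630, 476 were also past 1.5-fold in that direction in the other tumour cells, as were 699 of the 1136, and none was past it in the opposite one. The median over all genes was -0.07 in mitotic cells and -0.10 in the other tumour cells.

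The overexpressed gene marked its library. Rspo3 gave 1651 UMIs in RSPO3-OE mitotic cells, 124.3 CPM (118.4 to 130.5), and 0 in Ctrl mitotic cells, where 3 counts would be 0.208 CPM. The log2 ratio was 9.22 against that floor, with a lower counting bound of 8.92. In the RSPO3-OE library 105 of 380 mitotic cells (27.6%, 23.2 to 32.4) and 831 of 3833 other tumour cells (21.7%, 20.4 to 23.02) held an Rspo3 UMI. C1q-high leukocytes of that library, which should lack it, held one in 2.62% (1.81 to 3.66) of cells at a median depth of 12230.5 UMIs. With each cell thinned to 2000 UMIs the shares were 11.1% (8.08 to 14.6) in mitotic and 8.79% (7.92 to 9.74) in other tumour cells. These intervals overlap, but thinning also leaves fewer UMIs to count. Without thinning, Rspo3 stood at 104.8 CPM (102.8 to 106.8) in the other RSPO3-OE tumour cells, beside 124.3 CPM in the mitotic cells. The part of depth was not tested. One cell held 8.84% of the mitotic Rspo3 UMIs.

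Members past 1.5-fold between the libraries in mitotic cells were counted in lists of division genes. Among all genes, 6.5% were higher and 11.7% lower past that limit. None of the cyclin and CDK1 list, the kinesins, the passenger and shugoshin genes and the cytokinesis genes was past it. Their list medians were -0.15, 0.02, -0.08 and 0.00. Kinetochore and checkpoint genes had 3 of 20 lower, and spindle and centrosome genes 3 higher and 2 lower of 32. Lower was also 1 gene each among 11 mitotic kinases, 18 genes of the anaphase-promoting complex and its targets, and 17 condensation and cohesion genes. Among 20 centromere genes 2 were lower past 1.5-fold, a share near the 11.7% of all genes: Hjurp, the chaperone that loads CENP-A, stood at 115.9 CPM in RSPO3-OE and 178.8 in Ctrl mitotic cells, a log2 ratio of -0.63, and Cenpc1, which binds CENP-A nucleosomes, at 46.7 and 70.2 CPM, -0.59. The same ratios in the other tumour cells were -0.61 and -0.47, beside -0.61 for Cenpa. Mis18a and Oip5, which also act in CENP-A loading, had 0.07 and 0.03 in mitotic cells. Tubulin genes went both ways, with Tubb2a at 242.3 against 112.2 CPM and Tuba1a at 939.2 against 510.4 CPM higher in RSPO3-OE, and Tubb5 at 1190 against 1407 CPM. Tubulin genes are near-identical copies, so their counts may be shared among them. Cdkn1a, the p21 inhibitor of CDKs, was at 83.9 CPM in RSPO3-OE and 26.4 in Ctrl mitotic cells, a log2 ratio of 1.67, and 1.66 in the other tumour cells.

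Among genes with at least 100 CPM in 1 of the libraries, those with the highest ratio of RSPO3-OE over Ctrl in mitotic cells after Rspo3 were Mgp, S100a16, Ccl5, Lgals7, Krt8, Cxcl9, Ccl7, Crip2 and Crip1. Krt8, an epithelial keratin, stood at 556.7 CPM in RSPO3-OE and 84.6 in Ctrl, a log2 ratio of 2.72 (2.63 to 2.81), and was found in 74.5% and 14.8% of mitotic cells. Crip1, a small LIM domain protein, stood at 2524 and 470.4 CPM, a log2 ratio of 2.42. S100a16, a calcium-binding protein, stood at 121.6 and 15.3 CPM, and Lgals7, a galectin of epithelia, at 108.0 and 15.3 CPM, where 18.6% of the Ctrl UMIs came from 1 cell. Nearly the same ratios were seen in the other tumour cells for Krt8 (2.61), Ccl7 (2.55 beside 2.56) and Mgp (2.84 beside 3.09).

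Interferon gamma response genes were higher in the RSPO3-OE mitotic cells. Of 20 measured, 16 were past 1.5-fold, with a list median of 1.28, and in the other tumour cells also 16, with a median of 1.07. Of all genes, 6.5% in mitotic and 8.45% in other tumour cells were higher past that limit. Iigp1, an interferon-induced GTPase, stood at 353.7 CPM in RSPO3-OE and 73.4 in Ctrl, Gbp2, a guanylate-binding protein, at 331.6 and 94.1 CPM, and Irf1, a transcription factor of the pathway, at 312.2 and 117.4 CPM. Immediate early genes were higher for 16 of 21, with a median of 0.92 in mitotic and 1.098 in other tumour cells. Fos had a log2 ratio of 1.32, Junb 1.31 and Egr1 1.32. Transcripts encoded by mitochondria had a median of -0.49 in mitotic and -0.50 in other tumour cells.

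With the same minimum of 100 CPM, the genes with the lowest ratio of RSPO3-OE over Ctrl in mitotic cells were Hist1h1e, Hist1h1b, Hist1h2ap, Hist1h2ae, Sox4, Ccdc85b, Gas1, Nsd2, Esm1 and Erp29. Sox4, a developmental transcription factor, stood at 47.1 CPM in RSPO3-OE and 127.7 in Ctrl, a log2 ratio of -1.44 (-1.57 to -1.31). Gas1, a membrane protein named for its expression at growth arrest, stood at 64.1 and 137.8 CPM, and Nsd2, a histone H3 methyltransferase, at 70.5 and 142.4 CPM. Esm1, a proteoglycan of the endothelium, was at 64.0 and 126.6 CPM, a log2 ratio of -0.98, and had -0.99 in the other tumour cells.

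Most replication-dependent histone genes were lower in RSPO3-OE in both cell sets, with library ratios further below 0 in mitotic than in other tumour cells. These RNAs mostly lack poly(A) tails, and a kit that captures poly(A) reads only a part of them. The genes are near-identical copies, so single members are uncertain. Hist1h1e, a linker histone, stood at 44.6 CPM in RSPO3-OE and 269.1 in Ctrl mitotic cells, a log2 ratio of -2.59 (-2.72 to -2.47), against -1.51 in the other tumour cells. Hist1h1b stood at 51.3 and 258.5 CPM, -2.33 against -1.07, and Hist1h2ap, an H2A gene, at 66.6 and 331.2 CPM, -2.32 against -1.44. Of 11 measured histone genes 9 were past 1.5-fold lower in mitotic cells, with a list median of -2.00, and 8 in the other tumour cells, with a median of -0.88. Of all genes, 11.7% in mitotic and 12.9% in other tumour cells were lower past that limit. The exceptions in mitotic cells were Hist1h1c, at -0.38 against -0.63 in the other tumour cells, and Hist1h2bc, at 0.56 against -0.04. The list median in mitotic cells depended on how the set was drawn. It was -1.71 with Cenpa left out of the score and -1.75 with 10% taken within each library. With the highest 20% of cells it was -1.26, and with the highest 5% -2.49.

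Within each library the level of histone genes in mitotic cells relative to the other tumour cells depended on the limit of the score. The median log2 ratio was -0.52 in RSPO3-OE and 0.32 in Ctrl. With the highest 20% of cells taken it was 0.52 and 0.60, and with cells thinned to 2000 UMIs 0.28 and 0.73, so the direction in RSPO3-OE turned under both settings. Per cell, the summed level of 12 histone genes had a median of 265.4 CPM in RSPO3-OE mitotic cells and 941.2 CPM in Ctrl, and 210.1 and 577.4 CPM in the other tumour cells. The median cell was thus higher in the mitotic set in both libraries, while in RSPO3-OE the summed UMIs were lower. Of the RSPO3-OE mitotic cells 17.1% (13.5 to 21.3) lay above the Ctrl median, and 80.5% (76.7 to 84.0) of the Ctrl mitotic cells above the RSPO3-OE median. The distributions overlapped over most of their range. In the mitotic cells, step 4 and step 5 summed to 669.1 and 418.3 CPM in RSPO3-OE and to 1746 and 1307 CPM in Ctrl, from 1103 and 2243 CPM in step 3.

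**Figure D4:**
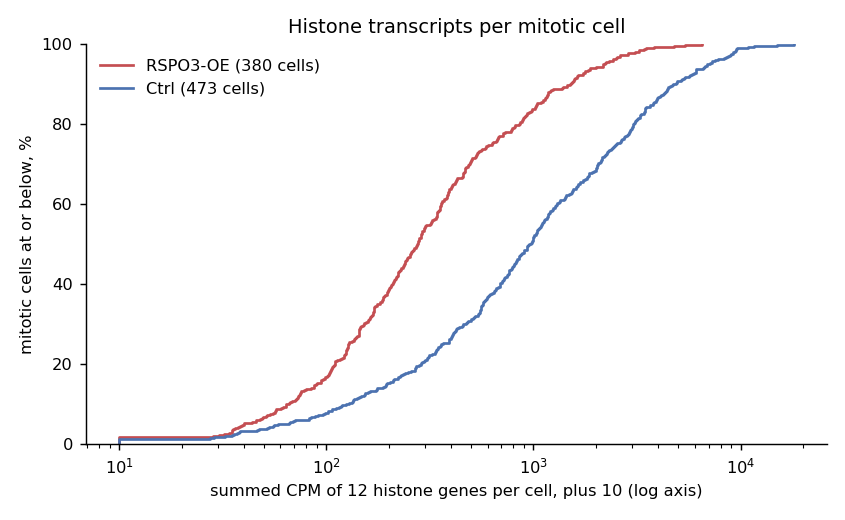
Cumulative share of mitotic cells in % (y axis) by the summed CPM of 12 histone genes per cell plus 10 (x axis, log scale), for 380 RSPO3-OE and 473 Ctrl cells. The RSPO3-OE curve lies to the left, with medians of 265.4 and 941.2 CPM before the addition.

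Other genes also differed in their library ratio between the cell sets, and some had a large part of their UMIs in 1 cell. Ccl5, a chemokine of T cells and macrophages, stood at 375.6 CPM in RSPO3-OE and 51.5 in Ctrl mitotic cells, against 254.9 and 118.8 CPM in the other tumour cells. The difference of its log2 ratios was 1.77 (1.65 to 1.88), but 12.03% and 11.9% of its mitotic UMIs came from 1 cell in each library, and with cells thinned to 2000 UMIs it was -0.08. Cxcl9, an interferon-induced chemokine, had a difference of 0.80 with 22.0% of the Ctrl UMIs in 1 cell. Gngt2, a G protein subunit, had 0.79 (0.37 to 1.21) from 52 UMIs in Ctrl mitotic cells, 11.5% of them in 1 cell. S100a16 had 0.63. Itgb4, an integrin of epithelial anchorage, had 0.61 from 54 UMIs in Ctrl mitotic cells, and -0.07 among tumour cells without C1q UMIs. Ptgs2 had a difference of -0.89, with log2 ratios of -0.24 in mitotic and 0.65 in other tumour cells. The 5 other genes with the most negative differences were the histones Hist2h2ac (-1.29), Hist1h1b (-1.26), Hist1h1e (-1.08), Hist1h2ae (-0.99) and Hist1h4d (-0.95).

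**Figure D5:**
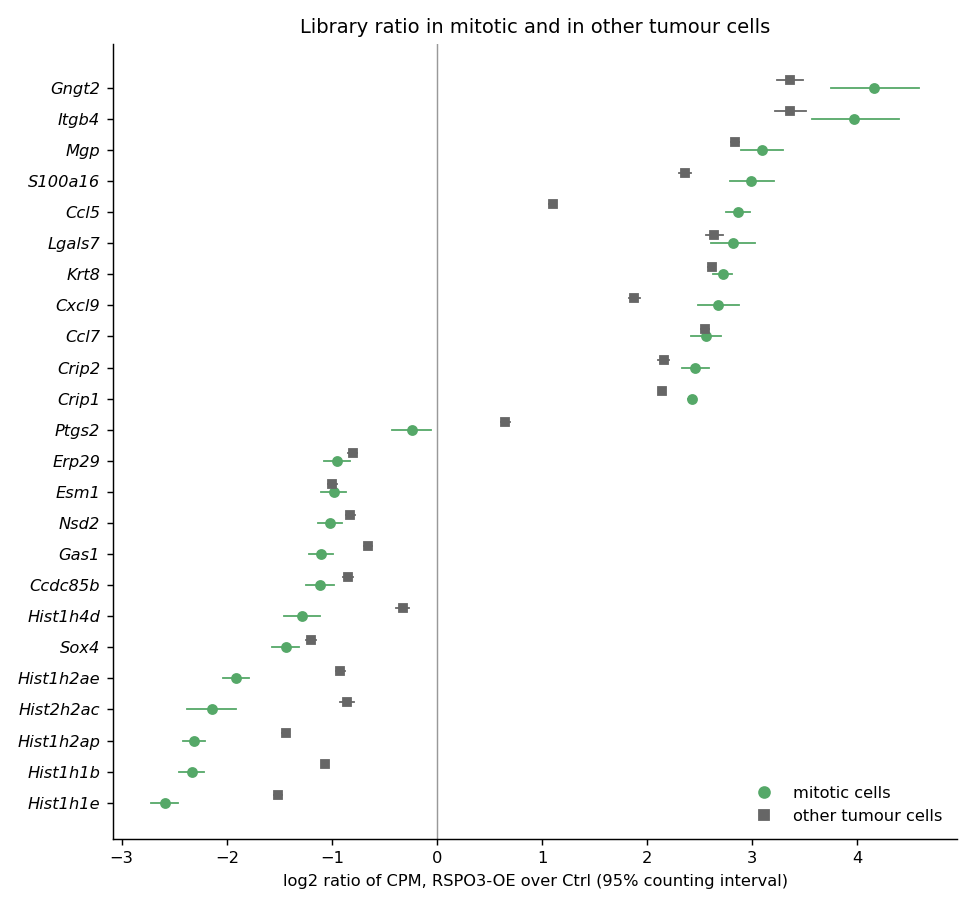
Log2 ratio of CPM in RSPO3-OE over Ctrl (x axis, with 95% counting intervals) in mitotic cells (green circles) and other tumour cells (grey squares) for 24 genes (rows). Krt8 lies at 2.72 and 2.61, while Hist1h1e lies at -2.59 and -1.51.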

How the data were processed

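Raw UMI counts per gene and barcode in 2 droplet libraries were used as deposited by the authors. Libraries were made with a 3′ v2 kit, per the labels' protocols. Cell Ranger 3.0.1 and mm10 are named in the submitters' processing notes, and the matrix header gives software 3.1.0. The barcodes were already called as cells. Whether strand was used in counting is not stated in the labels. The libraries held 155615189 (RSPO3-OE) and 143881763 (Ctrl) UMIs.

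UMIs were summed per library and cell set and divided by the set's total (CPM, counts per 1000000). Log2 ratios have exact binomial 95% intervals and shares exact Clopper-Pearson intervals. PCR duplicates are collapsed by UMI, yet intervals and floors cover counting error only. Genes needed at least 100 UMIs over the groups compared. A count of 0 stood at a floor of 3 counts. The steps were tested on simulated data. The tools were scanpy 1.11.5 (Scrublet), pandas 2.3.3, scipy 1.17.1 and numpy 2.4.6 under Python 3.11.15.

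Members and gene lists were chosen with earlier results of these data known. Named were the 12 highest and 12 lowest genes by the mean ratio of mitotic over other tumour cells (at least 50 CPM in the higher set), the 10 highest and 10 lowest between libraries in mitotic cells (at least 100 CPM), the 6 highest and 6 lowest differences of the library ratio between cell sets, and up to 4 high and 2 low members per list. Mitochondrial, ribosomal, haemoglobin, receptor and unnamed-model genes were left out. Cdk1, Rhoa, Cdkn1a, Top2a, Ndc80, Tubb5, Mis18a and Oip5 were named for their role after their values had been seen, as were a few further list members. Some genes that the rule names are not reported here. Promoter sequences are from RefSeq (GRCm38.p6).

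Alternatives were other score genes, other percentages, thinning, doublet removal, stricter filters, another scaling and a lower UMI minimum.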

Additional observations from a re-analysis of the deposited data

Results flagged for a closer look

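Several genes stood on opposite sides of the other tumour cells in the 2 libraries, with a counting interval away from 0 in both. With 1 library per group these differences between libraries were not tested. Histone genes made up 5 of the 8: the log2 ratio of mitotic over other tumour cells was -0.52 in RSPO3-OE and 0.47 in Ctrl for Hist1h2ae, -0.80 and 0.077 for Hist1h2ap, -0.30 and 0.61 for Hist1h3c, -0.28 and 0.68 for Hist1h4d, and -0.97 and 0.32 for Hist2h2ac. Dtl, a substrate receptor that clears replication licensing factors, stood at -0.32 and 0.30. Of the chemokines, Ccl5 stood at 0.56 in RSPO3-OE and -1.21 in Ctrl, and Cxcl2, a neutrophil chemokine, at -0.73 and 0.57. Counting intervals do not cover an uneven spread over cells. Single cells held 12.03% of the mitotic Ccl5 UMIs in RSPO3-OE and 11.9% in Ctrl, and its difference of library ratios was -0.075 after thinning. The histone list median in RSPO3-OE was positive with the highest 20% of cells taken (0.52) and after thinning (0.28).

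Outside the tumour cell rule, 106 kept barcodes in RSPO3-OE and 159 in Ctrl also reached the score of the mitotic cells. Of these, 23 and 44 held at least 10 C1q UMIs, and 41 and 25 held Ptprc with fewer C1q UMIs. The other 42 and 90 had neither Ptprc nor Hmga2. This last group had median depths of 20094 and 15560 UMIs and 2.18 and 3.94 CPM of the Y-linked genes, against 104.0 and 85.2 CPM in the barcodes with at least 10 C1q UMIs. Krt8 stood at 549.0 CPM in the RSPO3-OE barcodes without Ptprc and Hmga2, beside 556.7 CPM in the mitotic cells, and at 108.4 CPM in the Ctrl ones, beside 84.6 CPM.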

How the results depend on the processing

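No paired analysis was possible because each group has 1 library and the labels carry no replicate numbers, and for the same reason no library could be left out. The log2 ratio of the mitotic share, 0.28, was 0.069 with Hmmr, Tpx2 and Kif20a alone and 0.049 without Cenpa. It lay between 0.23 and 0.46 under the 8 other settings that changed the cells or the score and could give a share. With cells thinned to 2000 UMIs, 135 genes were higher and 42 lower in mitotic cells (214 and 67 as reported), and 191 were higher and 202 lower in RSPO3-OE mitotic cells (630 and 1136); fewer UMIs leave fewer genes above the minimum. With the mean of cell CPM, 115 genes were lower in mitotic cells. With a minimum of 10 UMIs, 145 were lower, and 1262 were higher and 2156 lower between libraries. Every other setting left these counts within 1.5 times. Of 2306 values of single genes and lists under alternatives, 1733 stayed within their counting interval. The sign differed in 57, mostly values near 0, and 2 of these were past 1.5-fold as reported: the difference of library ratios of Ccl5 was -0.075 after thinning, and that of Itgb4 -0.074 among tumour cells without C1q UMIs. The median histone ratio of mitotic over other tumour cells ranged from -1.50 to 0.52 in RSPO3-OE and from 0.04 to 0.73 in Ctrl, and that between libraries in mitotic cells from -2.49 to -1.26. The causes were not tested.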
